A study of Mus musculus with 8 samples.

Results

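The 47 genes described here encode the digestive enzymes of the lysosome and their soluble cofactors (23 genes), lysosomal membrane proteins (7 genes), the transcription factors Tfeb and Tfe3 (2 genes), and subunits and accessory proteins of the vacuolar proton pump, the V-ATPase (15 genes). They were chosen by name for their known function, with no threshold on their values, but with earlier results of these data known. All 47 were matched among the 31053 gene identifiers that were counted. Their transcripts were measured in retinal pigment epithelium (RPE) of C57/Bl6 mice at postnatal day 29 (P29), in 4 libraries from Bbs8-/- mice, which lack the ciliary gene Bbs8 throughout the body, and 4 libraries from wild-type littermates (Bbs8+/+). The animals were untreated, each library came from 1 mouse, and the sex of the mice was not determined. The labels call the samples isolated RPE cells. The study's methods describe both the peeling of RPE sheets from the choroid and the extraction of RNA from whole eyecups without cornea, lens, retina and optic nerve. These methods do not say which was used for sequencing. The study's results name isolated RPE specimens for the sequencing and eyecups for its qPCR. In the QuantSeq 3′ protocol the primer sits on the poly-A tail, and only the last part of a transcript is read. Levels are given as counts relative to library size (CPM), scaled by the TMM factors of edgeR.

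Lysosomes digest what a cell takes up or discards. In the RPE this includes the outer segment tips that photoreceptors shed every day, which are engulfed as phagosomes and broken down by cathepsins, glycosidases and lipases. The V-ATPase pumps protons into the lumen to give these enzymes the acidity they need, with a membrane sector (V0) that carries the protons and a cytosolic sector (V1) that hydrolyses ATP. Tfeb and Tfe3 are related transcription factors that bind a palindromic element, known as CLEAR, near the start of many lysosomal genes.

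The 8 libraries held 2389835 to 3093428 counts on genes. A gene at 3 counts was at 1.02 to 1.23 CPM, and this floor allows for counting error alone, since no molecular identifiers were used. Bbs8 (listed as Ttc8) was measured at 35.5, 53.0, 58.9 and 43.1 CPM in the Bbs8+/+ libraries and at 6.16, 1.79, 5.60 and 5.24 CPM in the Bbs8-/- libraries, so that every knockout library lay below every wild-type library, as the labels state (log2 fold change −3.34, standard error 0.29, adjusted p = 2.47e-11). Bbs8+/+ replicate 1 stood apart from the other wild-type libraries, with a chi-square per degree of freedom of 6.07 to 7.51 against them, where the other three pairs of wild-type libraries gave 2.87 to 3.41. Results that rest on this library are given with and without it. The RNA was not that of RPE alone. Summed over 16 photoreceptor markers the level was 56221 to 60236 CPM in Bbs8+/+ and 23511 to 24215 CPM in Bbs8-/- libraries. Of these 16 markers 12 fell, but 2 were higher without overlap (Opn1sw, log2 fold change 0.76, and Gnat2, 0.70). Lower levels were also found for 13 of 13 lens markers and 5 of 7 tested erythrocyte markers. The 12 RPE markers summed to 38411 to 39410 CPM in Bbs8+/+ and 46607 to 50309 CPM in Bbs8-/- libraries, with 3 markers higher (Ttr, Rrh and Slc16a8), 4 lower (Rpe65, Rdh5, Stra6 and Pmel) and 9 of 12 estimates negative. Ttr, the transthyretin gene, made the difference in this sum: the other 11 markers summed to 17601 to 18393 CPM in Bbs8+/+ and 16550 to 17087 CPM in Bbs8-/- libraries. Best1, an RPE channel protein, was at 0 to 2.00 CPM in every library. In bulk tissue of this kind, fewer cells of a type and less RNA per cell cannot be told apart, and the part of these shifts in the results below was not tested.

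Promoter windows from 250 bases before to 50 bases after an annotated RefSeq start (GRCm38.p6) were listed for 39 of the 47 genes. The 8-letter palindrome TCACGTGA, the core of the CLEAR element, was found in 8 of their 48 windows (16.7%), which belong to 8 of the 39 genes, compared with 0.974% of all 32851 windows. The shorter palindrome CACGTG, which the 8-letter motif contains, was found in 15 of the 48 windows (31.2%), those of 15 of the 39 genes, compared with 7.15% of all windows. Both motifs read the same on both strands. The stretches of the 8 windows that hold the longer motif are shown 5′ to 3′ on the strand of the gene. They carry a motif that was more frequent here than over all windows, although most of the 39 genes lacked it. The capitals mark TCACGTGA.

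Ctsa, chr2:164833740-164833804, forward strand: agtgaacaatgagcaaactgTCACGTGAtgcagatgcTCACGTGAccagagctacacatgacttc
Ctsd, chr7:142387899-142387946, reverse strand: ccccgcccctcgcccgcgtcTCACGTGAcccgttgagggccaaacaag
Gla, chrX:134601173-134601253, reverse strand: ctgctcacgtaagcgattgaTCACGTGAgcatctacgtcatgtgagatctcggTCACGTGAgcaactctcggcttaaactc
Cln3, chr7:126583331-126583378, reverse strand: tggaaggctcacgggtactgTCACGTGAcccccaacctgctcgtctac
Mcoln1, chr8:3500453-3500500, forward strand: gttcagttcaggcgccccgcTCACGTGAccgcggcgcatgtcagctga
Atp6v0d1, chr8:105566041-105566088, reverse strand: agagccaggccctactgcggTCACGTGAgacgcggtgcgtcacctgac
Atp6v0e, chr17:26676378-26676425, forward strand: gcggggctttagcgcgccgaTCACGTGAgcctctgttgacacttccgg
Atp6v1a, chr16:44139364-44139411, reverse strand: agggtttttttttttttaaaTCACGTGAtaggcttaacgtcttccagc

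The first of these genes is protective protein cathepsin A and the second the aspartic protease cathepsin D. Gla is alpha-galactosidase, Cln3 and Mcoln1 are lysosomal membrane proteins, and the other three encode a V0 subunit each (d1 and e) and the catalytic A subunit of the V1 sector. Counted from the annotated start, the single match lay at position −99 for Ctsd, −122 for Cln3, −46 for Mcoln1, −4 for Atp6v0d1, 3 for Atp6v0e and −132 for Atp6v1a. Ctsa held 2 matches, at −13 and 5, and Gla held 2, at −228 and −195. Lamp1, the abundant membrane glycoprotein used as a lysosome marker, held only the shorter motif, but 4 times, from −61 to −15, and Ctsl (cathepsin L) held it once, at −236. In their windows the capitals mark CACGTG.

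Lamp1, chr8:13159080-13159171, forward strand: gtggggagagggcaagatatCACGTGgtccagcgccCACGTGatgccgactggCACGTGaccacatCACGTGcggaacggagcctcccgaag
Ctsl, chr13:64370731-64370770, reverse strand: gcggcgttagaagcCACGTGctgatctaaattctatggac

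The windows of Npc1, Ctsb, Ctsh, Asah1, Atp6v1b2, Atp6v1c1, Atp6v1g1 and Atp6v1h were not listed. Each window refers to its own RefSeq start, which can differ from the outer start of the gene in GENCODE M21. The windows shown for Cln3, Atp6v0e, Ctsl and Cd63, among others, lie inside those outer gene limits. Matches and their positions hold for the listed starts only.

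In Bbs8-/- RPE, transcripts of 10 lysosomal and V-ATPase genes were higher than in Bbs8+/+ RPE and none was lower. The 10 were 4 cathepsins (Ctss, Ctsc, Ctsl and Ctsb), the lysosomal hydrolases Hexa and Lipa, the enzyme cofactor Psap, the membrane proteins Cd63 and Lamp2, and the pump subunit Atp6v1a. Their fold changes ranged from 1.24 for Atp6v1a to 2.51 for Ctss. By role, 7 of 23 enzymes and soluble proteins (30.4%), 2 of 7 membrane proteins (28.6%) and 1 of the 14 tested V-ATPase genes (7.14%) were higher. Over all tested genes 5.46% were higher, and the share of the V-ATPase genes was near this. Whether these shares differ was not tested. Some genes listed as markers of other cell types were also higher in Bbs8-/- libraries. The 8 markers of Müller glia, the supporting glia of the retina, summed to 2695 to 2962 CPM in Bbs8+/+ and 3402 to 3604 CPM in Bbs8-/- libraries. These sums did not overlap (ratio 1.21). Of the 8 markers 3 were higher (Glul, Sox9 and Gfap), and 2 without Bbs8+/+ replicate 1. Gfap was near the floor in Bbs8+/+ libraries, at 0 to 2.45 CPM, and at 3.84 to 8.24 CPM in Bbs8-/- libraries. Most of the difference between the sums came from Glul, with a mean of 1199 CPM in Bbs8+/+ and 1709 CPM in Bbs8-/- libraries. The means of the whole sum were 2869 and 3465 CPM. In Bbs8+/+ libraries Glul, Car14 (mean 1056 CPM) and Sox9 (480 CPM) were the highest of the list. Slc1a3, Aqp4 and Gfap had means of 8.45, 1.52 and 1.07 CPM there. Which cells this RNA came from was not tested. The estimates of 6 markers were positive, and those of Vim (log2 fold change −0.18) and Car14 (−0.05) were negative. Markers of choroidal melanocytes and Schwann cells summed to 220 to 263 and 271 to 306 CPM, respectively, without overlap (ratio 1.19), with 1 of 5 tested markers higher (Mlana). Their part in the rise of the lysosomal genes was not tested.

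Of the 47 genes, 46 had at least 1 CPM in at least 4 libraries and were tested among 12889 genes with edgeR's quasi-likelihood test, two-sided, with Benjamini-Hochberg adjustment over all 12889 and a threshold of 0.05. The 10 higher genes are 21.7% of the 46, where 5.46% of all tested genes were higher, and the 0 lower genes compare with 6.80% of all tested genes that were lower. At an unadjusted p under 0.05, 19 of the 46 were higher and 2 were lower, beside 1453 higher and 1563 lower of all 12889 tested genes. The log2 fold change was positive for 34 of the 46 (73.9%, compared with 51.8% of all tested genes) and its median was 0.18, compared with 0.02 over all tested genes. In 10 of the 46 every Bbs8-/- library lay above every Bbs8+/+ library, where 7.42% of all tested genes did so, and in 1 (Atp6v0b) every knockout library lay below, where 8.62% did so. The 10 without overlap were 7 of the 10 called genes (Ctss, Ctsc, Ctsl, Ctsb, Lipa, Cd63 and Atp6v1a) and Ctsa, Ctsz and Grn. The whole list made up 1.11% to 1.21% of the counts of each wild-type library and 1.41% to 1.44% of those of each knockout library. These shares are of raw counts, without TMM. In scaled CPM the list summed to 11633 to 12380 in Bbs8+/+ and 13530 to 14040 in Bbs8-/- libraries (ratio of the means 1.16).

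**Figure D1:**
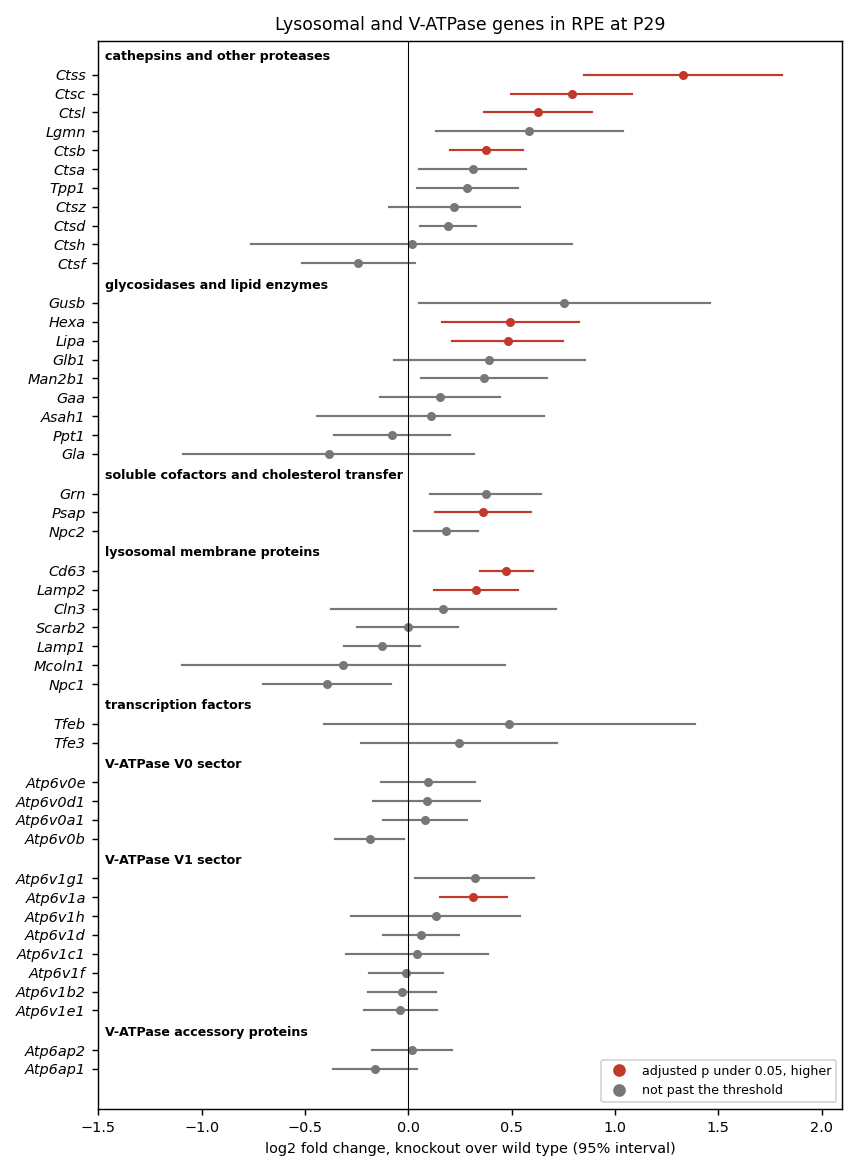
Log2 fold change (Bbs8-/- over Bbs8+/+, x axis) of the 46 tested genes, grouped by role, with points for the estimate and bars for its 95% confidence interval from edgeR's quasi-likelihood fit (4 libraries per genotype). The 10 genes past the threshold, in red, all lie to the right of 0, and most V-ATPase genes in the lower part sit near 0.

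Scaling changed the number of genes called but not their direction. With library size alone in place of TMM, 17 genes were higher and 0 lower, while over all tested genes the calls moved from 704 higher and 877 lower (44.5% higher) to 1005 higher and 657 lower (60.5% higher), and the median log2 fold change of all genes moved by 0.09. Without Bbs8+/+ replicate 1, 12 genes were higher and 0 lower, beside 645 higher and 847 lower of all 12689 genes then tested. Of the 12 genes, 7 were shared with the 10. Hexa, Psap and Lamp2 were lost, and Ctsa, Ctsd, Man2b1, Grn and Npc2 were gained.

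Among the proteases, 4 of 11 were higher (36.4%, where 5.46% of all tested genes were), and 10 of 11 had a positive log2 fold change (median 0.31). Cathepsin S (Ctss, ENSMUSG00000038642, chr3:95526786-95556403, forward strand) is a cysteine protease best known from antigen-presenting cells, where it trims the invariant chain. Its level was 15.6, 14.9, 15.5 and 14.1 CPM in the Bbs8+/+ libraries and 50.5, 34.8, 28.4 and 37.7 CPM in the Bbs8-/- libraries. The wild-type libraries were nearly alike, and the lowest knockout library was well above the highest of them. The log2 fold change was 1.33 (standard error 0.24, 95% interval 0.85 to 1.81, adjusted p = 7.08e-05), a mean of 15.0 ± 0.68 CPM compared with 37.8 ± 9.29 CPM (SD, n = 4).

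Ctss is abundant in microglia and macrophages, and the part of these cells in its rise was not tested. Of 18 markers 17 were tested, of which none was higher and 1 was lower (Mrc1, a mannose receptor, log2 fold change −1.30, adjusted p = 0.033, not called without Bbs8+/+ replicate 1), and 7 of 17 estimates were positive. Their summed level was 386 to 509 CPM in Bbs8+/+ and 350 to 404 CPM in Bbs8-/- libraries, with an overlap, and most of it was Csf1r, the receptor of a macrophage growth factor. Without Csf1r the sums were 108 to 127 and 85.6 to 130 CPM.

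Single markers pointed in both directions on low counts. Cx3cr1 was at 8.55 to 13.9 CPM in Bbs8+/+ and 9.67 to 15.6 CPM in Bbs8-/- libraries, Tmem119 at 12.6 to 15.9 and 11.1 to 15.6 CPM, and Aif1 at 0.339 to 3.36 and 0.699 to 2.15 CPM. Positive estimates that did not pass the threshold were those of Trem2 (0 to 2.04 and 1.75 to 2.80 CPM, log2 fold change 1.58, adjusted p = 0.400), Cd68 (2.03 to 5.97 and 6.81 to 8.21 CPM without overlap, 0.73, adjusted p = 0.397), Fcer1g (0.65, adjusted p = 0.516), C1qc (0.62, adjusted p = 0.304) and Tyrobp (0.59, adjusted p = 0.596). P2ry12 had 0 or 1 count per wild-type library and 0 to 6 per knockout library and was not tested.

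Cathepsin C (Ctsc, ENSMUSG00000030560, chr7:88278085-88310888, forward strand) is a dipeptidyl peptidase that activates other proteases. It was measured at 48.4, 75.3, 85.8 and 70.6 CPM in Bbs8+/+ libraries and at 111, 133, 124 and 115 CPM in Bbs8-/- libraries. The groups did not overlap, and the lowest wild-type value was that of replicate 1. The log2 fold change was 0.79 (standard error 0.14, adjusted p = 0.000106), and without that library it was 0.65 (adjusted p = 0.000181).

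Cathepsin L (Ctsl, ENSMUSG00000021477, chr13:64359337-64370890, reverse strand) is a cysteine endopeptidase that also matures other cathepsins. Bbs8+/+ libraries held 91.1, 123, 161 and 122 CPM and Bbs8-/- libraries 163, 199, 222 and 182 CPM. The highest wild-type and the lowest knockout library were almost equal, but the groups did not overlap (log2 fold change 0.63, standard error 0.13, adjusted p = 0.000512). This is the only called gene whose window, shown above, held the 6-letter but not the 8-letter motif.

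Cathepsin B (Ctsb, ENSMUSG00000021939, chr14:63122462-63145923, forward strand), a cysteine protease of broad specificity, was at 309, 368, 367 and 337 CPM in Bbs8+/+ and at 500, 412, 450 and 432 CPM in Bbs8-/- libraries. Every knockout library was higher than every wild-type library, by a smaller margin than for Ctss or Ctsc. This gave a log2 fold change of 0.38, with a standard error of 0.09 (adjusted p = 0.00222).

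Cathepsin D (Ctsd), the main aspartic protease of the lysosome and of outer segment digestion in the RPE, was close to the threshold. It was measured at 2725, 2307, 2189 and 2009 CPM in Bbs8+/+ and at 2537, 2620, 2712 and 2669 CPM in Bbs8-/- libraries. Bbs8+/+ replicate 1 was above all 4 knockout libraries, while the other wild-type libraries were below all of them. With all libraries the log2 fold change was 0.19 (95% interval 0.06 to 0.33) and missed the threshold (adjusted p = 0.054). Without replicate 1 it was 0.28 (adjusted p = 2.93e-05). With all 8 libraries Ctsd was called under 4 alternatives, with library size alone (adjusted p = 0.00237), without the filter (0.039), at a minimum of 5 CPM (0.039) and with the replicate block (0.043).

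The other proteases did not pass the threshold. Legumain (Lgmn), an asparaginyl endopeptidase, was at 17.3, 41.8, 59.7 and 53.9 CPM in Bbs8+/+ and at 46.0, 65.9, 77.2 and 68.1 CPM in Bbs8-/- libraries, with an overlap and the lowest value again in Bbs8+/+ replicate 1 (log2 fold change 0.59, adjusted p = 0.085). Lgmn passed without Bbs8+/+ replicate 3 (0.78, adjusted p = 0.027) or Bbs8-/- replicate 1 (0.72, adjusted p = 0.047), and was at 0.32 without Bbs8+/+ replicate 1 (adjusted p = 0.298). Tripeptidyl peptidase 1 (Tpp1), which is mutated in a childhood ceroid lipofuscinosis, was at 0.29 on the log2 scale (adjusted p = 0.133) with all libraries and at 0.12 without Bbs8+/+ replicate 1, and it passed without Bbs8+/+ replicate 3 (0.39, adjusted p = 0.035). For Ctsa the log2 fold change was 0.31 (adjusted p = 0.117), without overlap between the groups, and without Bbs8+/+ replicate 1 it was 0.38 (adjusted p = 0.049). Exons of Ctsa overlap those of Pltp on the opposite strand, which held 6481 counts in all libraries compared with 2085 for Ctsa. The carboxypeptidase cathepsin Z (Ctsz, log2 fold change 0.22, adjusted p = 0.432), the aminopeptidase cathepsin H (Ctsh, 0.02, adjusted p = 0.989) and cathepsin F (Ctsf, −0.24, adjusted p = 0.292) complete the group, and Ctsf was the only protease with a negative estimate.

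Of the 9 glycosidases and lipid-degrading enzymes, 2 were higher (22.2%, where 5.46% of all tested genes were) and the median log2 fold change was 0.37. Hexa (ENSMUSG00000025232, chr9:59539540-59565109, forward strand) encodes the alpha subunit of beta-hexosaminidase A, which degrades GM2 ganglioside. It was at 47.7, 73.1, 55.2 and 43.9 CPM in Bbs8+/+ and at 67.3, 89.2, 82.0 and 70.6 CPM in Bbs8-/- libraries. A single wild-type library, replicate 2, lay within the range of the knockout libraries. Its log2 fold change was 0.49 (standard error 0.16, adjusted p = 0.040), and leaving out Bbs8+/+ replicate 1, 3 or 4 or Bbs8-/- replicate 2 or 3 ended the call, with an adjusted p of 0.077 to 0.168.

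Lipa (ENSMUSG00000024781, chr19:34492318-34527474, reverse strand), the acid lipase that hydrolyses cholesteryl esters and triglycerides, was at 75.8, 67.9, 71.5 and 75.1 CPM in Bbs8+/+ and at 95.7, 111, 108 and 90.5 CPM in Bbs8-/- libraries. The groups were well apart (log2 fold change 0.48, standard error 0.13, adjusted p = 0.011), and the call held without any single library.

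The other seven enzymes of this group did not pass the threshold. Gusb (beta-glucuronidase) had a positive log2 fold change of 0.75 at a low level, 5.57 to 17.5 CPM in Bbs8+/+ and 12.8 to 17.6 CPM in Bbs8-/- libraries (adjusted p = 0.172), and without the highest wild-type library, replicate 2, it was 1.23 (adjusted p = 0.030). Glb1 (beta-galactosidase) was at 0.39 (adjusted p = 0.317) and Man2b1 (alpha-mannosidase) at 0.37 (adjusted p = 0.120, 0.0495 without Bbs8+/+ replicate 1 and 0.034 without Bbs8-/- replicate 1). Gaa (acid alpha-glucosidase) had a log2 fold change of 0.15, Asah1 (acid ceramidase) of 0.11, Ppt1 (a protein thioesterase) of −0.08 and Gla of −0.39, and the intervals of all 4 included 0.

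All 3 soluble cofactors and transfer proteins had positive estimates, as did 51.8% of all tested genes. Of the 3, 1 was higher (33.3%, where 5.46% of all tested genes were). Psap (ENSMUSG00000004207, chr10:60277627-60302597, forward strand) encodes prosaposin, the precursor of the saposins that present sphingolipids to their hydrolases. It was at 967, 1532, 1943 and 1693 CPM in Bbs8+/+ and at 2406, 2037, 1688 and 1744 CPM in Bbs8-/- libraries. The groups overlapped widely, with replicate 1 lowest among wild-type and highest among knockout libraries. A log2 fold change of 0.36 over all libraries (standard error 0.11, adjusted p = 0.030) was 0.19 without Bbs8+/+ replicate 1 (adjusted p = 0.055). The call was also lost without Bbs8+/+ replicate 2 (adjusted p = 0.071) or Bbs8-/- replicate 1 (0.25, adjusted p = 0.219) or 2 (adjusted p = 0.091), and in DESeq2's Wald test and edgeR's likelihood ratio test.

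Progranulin (Grn), which is cleaved into granulins in the lysosome, was at 85.3, 79.1, 65.8 and 75.4 CPM in Bbs8+/+ and at 99.4, 101, 102 and 93.6 CPM in Bbs8-/- libraries. The groups did not overlap, and the gene was just outside the threshold (log2 fold change 0.37, adjusted p = 0.058) and inside it without Bbs8+/+ replicate 1 (0.43, adjusted p = 0.028). For Npc2, which hands cholesterol to Npc1, it was 0.18 (adjusted p = 0.128), and without that replicate 0.23 (adjusted p = 0.016).

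**Figure D2:**
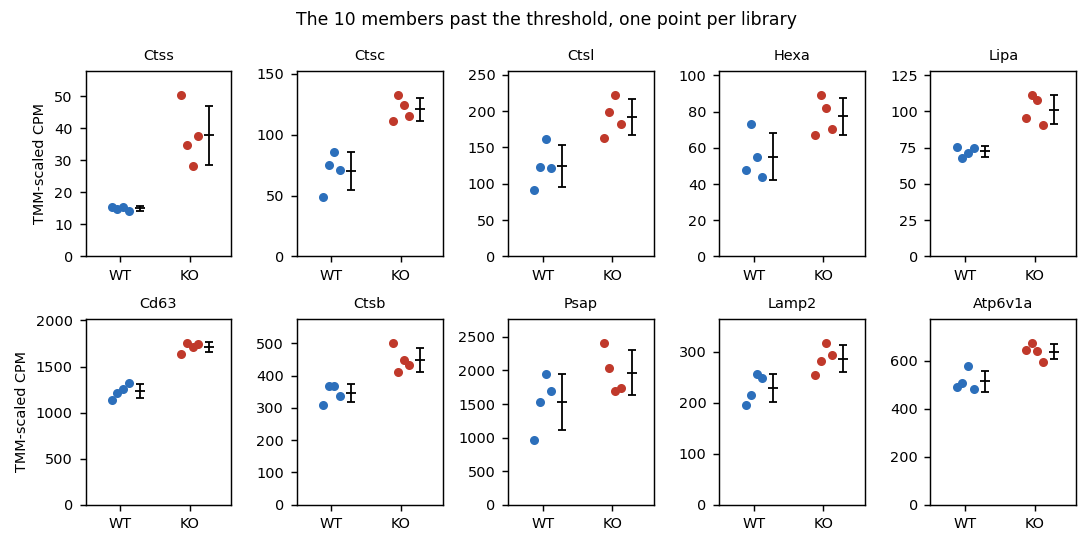
Level (TMM-scaled CPM, y axis from 0) of each of the 10 called genes, with a point per library in the order of replicates 1 to 4, and a bar for the mean and SD beside each group (WT, Bbs8+/+; KO, Bbs8-/-; n = 4). Ctss, Ctsc, Lipa and Cd63 show groups that are well apart, whereas Psap, Hexa and Lamp2 overlap.

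Of the 7 membrane proteins, 2 were higher (28.6%, where 5.46% of all tested genes were). Estimates were positive for 3 and negative for 4, and the median log2 fold change was −0.00. Cd63 (ENSMUSG00000025351, chr10:128900989-128912822, forward strand), a tetraspanin of lysosomes, melanosomes and exosomes, had the smallest adjusted p of all 46 genes. It was at 1138, 1213, 1254 and 1321 CPM in Bbs8+/+ and at 1632, 1754, 1712 and 1741 CPM in Bbs8-/- libraries. The spread within each genotype was small beside the distance between them (log2 fold change 0.47, standard error 0.06, 95% interval 0.34 to 0.60, adjusted p = 4.99e-07).

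Lamp2 (ENSMUSG00000016534, chrX:38401357-38456454, reverse strand), a membrane glycoprotein needed for the fusion of lysosomes with autophagosomes and phagosomes, was at 195, 216, 255 and 248 CPM in Bbs8+/+ and at 253, 282, 316 and 293 CPM in Bbs8-/- libraries. The groups crossed only at their edges, where the highest wild-type library was level with the lowest knockout library. The log2 fold change was 0.32 (standard error 0.10, adjusted p = 0.026), and without Bbs8+/+ replicate 1 it was 0.26 (adjusted p = 0.059). Leaving out Bbs8+/+ replicate 2 or Bbs8-/- replicate 3 or 4 also ended the call, with an adjusted p of 0.071 to 0.114.

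Its paralog Lamp1 was not higher. It was at 307, 302, 345 and 288 CPM in Bbs8+/+ and at 291, 298, 266 and 280 CPM in Bbs8-/- libraries, which overlapped (log2 fold change −0.13, 95% interval −0.31 to 0.05, adjusted p = 0.429). Npc1, the cholesterol exporter of the lysosomal membrane, had the most negative estimate of the list, with 79.2, 85.0, 69.1 and 91.1 CPM in Bbs8+/+ and 50.9, 77.4, 62.4 and 56.3 CPM in Bbs8-/- libraries (log2 fold change −0.39, adjusted p = 0.092). The 2 groups overlapped through a single knockout library, replicate 2, and without it the log2 fold change was −0.52 (adjusted p = 0.033). Scarb2, the receptor that delivers glucocerebrosidase to lysosomes (log2 fold change −0.00), Cln3 (0.17) and the cation channel Mcoln1 (−0.31, at 6.77 to 13.4 CPM) had intervals that included 0.

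The windows of Ctss and Cd63, the called genes with the largest log2 fold change and the smallest adjusted p, held neither motif. They are shown in full (300 bases, the first 250 before the annotated start). The Cd63 window lies inside the gene limits given above, and the outer start of the gene at 128900989 was not covered.

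Ctss, chr3:95526536-95526835, forward strand: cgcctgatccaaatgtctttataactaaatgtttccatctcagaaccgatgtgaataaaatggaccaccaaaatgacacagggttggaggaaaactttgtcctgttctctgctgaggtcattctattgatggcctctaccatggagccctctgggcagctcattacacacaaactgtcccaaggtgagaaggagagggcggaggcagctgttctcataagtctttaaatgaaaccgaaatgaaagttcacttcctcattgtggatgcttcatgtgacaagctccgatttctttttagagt
Cd63, chr10:128909095-128909394, forward strand: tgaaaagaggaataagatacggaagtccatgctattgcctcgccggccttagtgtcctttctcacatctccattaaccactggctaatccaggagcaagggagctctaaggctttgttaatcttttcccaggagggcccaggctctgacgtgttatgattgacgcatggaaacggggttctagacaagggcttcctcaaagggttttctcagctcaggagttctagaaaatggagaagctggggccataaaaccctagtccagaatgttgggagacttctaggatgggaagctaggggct

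Tfeb (ENSMUSG00000023990), which drives lysosomal genes when it enters the nucleus, was measured at a low level, 7.11, 5.97, 6.54 and 4.46 CPM in Bbs8+/+ and 8.62, 3.94, 8.0 and 13.3 CPM in Bbs8-/- libraries. The knockout libraries held both the lowest and the highest value, and the log2 fold change of 0.49 had an interval from −0.41 to 1.39 (adjusted p = 0.569). Tfe3 (ENSMUSG00000000134) was at 33.5, 18.6, 22.1 and 21.9 CPM in Bbs8+/+ and at 27.5, 31.5, 23.6 and 31.4 CPM in Bbs8-/- libraries. Bbs8+/+ replicate 1 was above all other libraries, and the groups overlapped (log2 fold change 0.24, interval −0.23 to 0.72, adjusted p = 0.594). Without that library the log2 fold change of Tfe3 was 0.45 (adjusted p = 0.299). At this depth no difference in either was detectable, and transcript levels do not show where in the cell the proteins were.

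Of the 15 listed V-ATPase genes 14 were tested and 1 was higher (7.14%, near the 5.46% of all tested genes). Estimates were positive for 9 and negative for 5, and the median log2 fold change was 0.05. Atp6v1a (ENSMUSG00000052459, chr16:44085402-44139705, reverse strand), the catalytic A subunit, was at 489, 508, 580 and 481 CPM in Bbs8+/+ and at 646, 674, 642 and 594 CPM in Bbs8-/- libraries. The groups did not overlap, although Bbs8+/+ replicate 3 came within a few percent of the lowest knockout library (log2 fold change 0.31, standard error 0.08, adjusted p = 0.00547). It is also the only called gene whose window held TCACGTGA.

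Its partner in the catalytic ring, Atp6v1b2, was not higher. That B subunit was at 415, 437, 438 and 453 CPM in Bbs8+/+ and at 421, 388, 451 and 445 CPM in Bbs8-/- libraries, and the interval of its log2 fold change ran from −0.20 to 0.14. The V1 stalk and regulatory subunits Atp6v1c1 (0.04), Atp6v1d (0.06), Atp6v1e1 (−0.04), Atp6v1f (−0.01) and Atp6v1h (0.13) had log2 fold changes whose intervals included 0. Atp6v1g1 was at 69.7, 83.9, 111 and 79.2 CPM in Bbs8+/+ and at 118, 98.9, 91.6 and 119 CPM in Bbs8-/- libraries, with a log2 fold change as large as that of Atp6v1a but a wider spread (0.32, standard error 0.14, adjusted p = 0.151), which passed without Bbs8+/+ replicate 3 (0.46, adjusted p = 0.036).

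None of the V0 genes passed the threshold. Atp6v0b, a proteolipid of the rotor, was at 455, 449, 422 and 463 CPM in Bbs8+/+ and at 358, 418, 400 and 397 CPM in Bbs8-/- libraries, with every knockout library below every wild-type library (log2 fold change −0.19, 95% interval −0.35 to −0.02, adjusted p = 0.151). The log2 fold changes of Atp6v0a1, Atp6v0d1 and Atp6v0e were 0.08, 0.09 and 0.10, and those of the accessory proteins Atp6ap1 and Atp6ap2 were −0.16 and 0.02, all with intervals that included 0. Atp6v0c, which encodes the main proteolipid of the rotor, had 0 to 6 counts per library and was not tested. Only uniquely mapped reads were counted, and the annotation holds 2 pseudogene copies of it, Atp6v0c-ps1 and Atp6v0c-ps2, so no level is given for it.

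Summed over the genes of a group, the level of the proteases was 3150 to 3652 CPM in Bbs8+/+ and 4096 to 4194 CPM in Bbs8-/- libraries, without overlap (ratio of the means 1.2). The glycosidases and lipid enzymes gave 390 to 460 and 479 to 534 CPM, and the membrane proteins 1848 to 2100 and 2361 to 2555 CPM, again without overlap, with ratios of 1.2 and 1.25. Cd63 made nearly all of the difference between the membrane protein sums, and the other 6 genes summed to 709 to 811 and 729 to 803 CPM, which overlapped (ratio 1.02). For the 15 listed V-ATPase genes the sums were 3580 to 3887 CPM in Bbs8+/+ and 3728 to 3932 CPM in Bbs8-/- libraries, which overlapped, with a ratio of 1.02. A sum is weighted towards genes with many counts, and these sums were not tested.

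**Figure D3:**
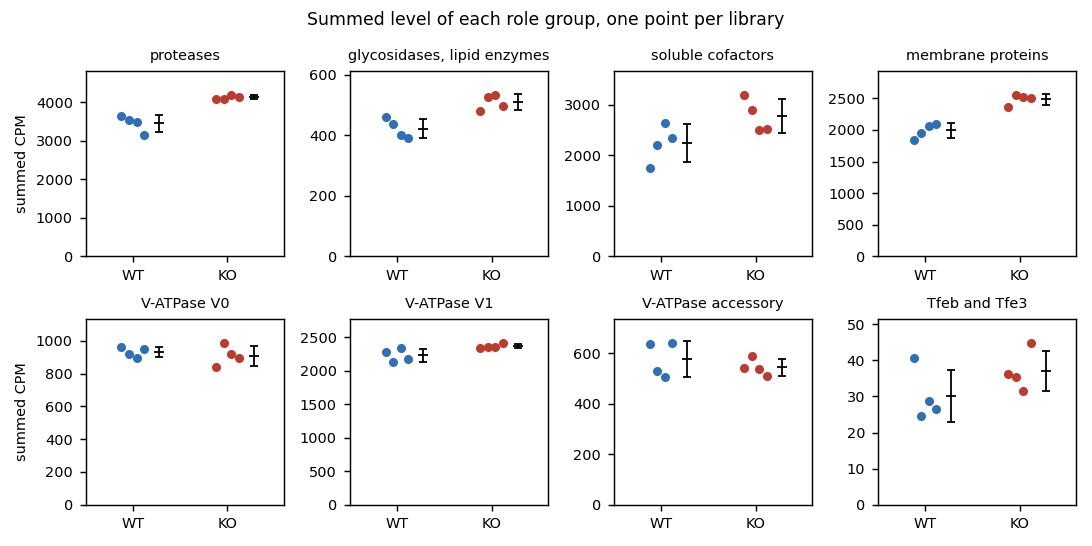
CPM summed over the genes of each role group (y axes from 0, one panel per group), with a point per library and the mean and SD (n = 4) beside them. Proteases, glycosidases and lipid enzymes, membrane proteins and the V1 sector show no overlap between genotypes, whereas the soluble cofactors, the V0 sector, the accessory proteins and the sum of Tfeb and Tfe3 overlap. Most of the V1 difference (means of 2233 and 2371 CPM in WT and KO) came from Atp6v1a (515 and 639 CPM).

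Most of the higher genes with a listed window held neither motif in it. Of the 8 tested genes with TCACGTGA in the window 1 was higher (Atp6v1a), with a median of 0.13 on the log2 scale, and of the 30 tested genes with a listed window without it 8 were higher, with a median of 0.26. For CACGTG the counts were 2 of 15 with the motif (median 0.15) and 7 of 23 without it (median 0.29). Whether these counts differ was not tested. A match is only a match of letters within these 300 bases, and neither a match nor its absence says whether a factor binds there or elsewhere.

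**Figure D4:**
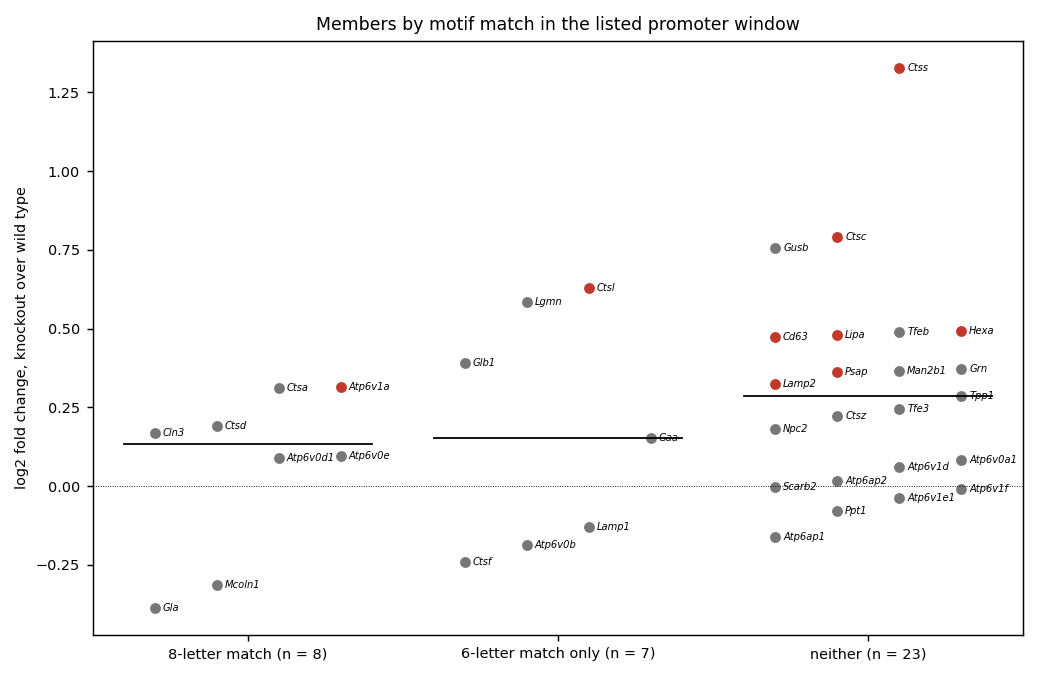
Log2 fold change (y axis) of the 38 tested genes with a listed window, split by whether the window held the 8-letter motif (8 genes), only the 6-letter motif (7 genes) or neither (23 genes); red points are past the threshold, grey points are not, and the line is the median. Of the 9 red points, 7 are in the group with neither motif.

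Lysosomal genes outside the list included some that changed in each direction. Of 123 further genes in 5 groups 111 were tested, of which 4 were higher (3.6%) and 5 lower (4.5%), beside 5.46% and 6.80% of all tested genes, and their median log2 fold change was 0.14. Among 33 other hydrolases and their activators, Gm2a, the activator protein that presents GM2 ganglioside to the hexosaminidase made with Hexa, was higher, at 142, 101, 128 and 128 CPM in Bbs8+/+ and 195, 181, 178 and 165 CPM in Bbs8-/- libraries, without overlap (log2 fold change 0.52, adjusted p = 0.00105). It was the only 1 of the 33 called (3.03%). The estimate was positive for 25 of the 33 (75.8%, compared with 51.8% of all tested genes), with a median of 0.25. Of 30 other membrane proteins, Litaf, an endosomal adaptor, was at 10.4 to 19.6 CPM in Bbs8+/+ and 30.0 to 39.8 CPM in Bbs8-/- libraries (log2 fold change 1.28, adjusted p = 0.000191), and for Cd164, a sialomucin, it was 0.48 (adjusted p = 0.000529). Laptm4b was lower, at 504 to 605 CPM in Bbs8+/+ and 334 to 382 CPM in Bbs8-/- libraries (log2 fold change −0.62, adjusted p = 4.39e-07).

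Among 16 genes of mannose 6-phosphate tagging and sorting, the route by which new hydrolases reach the lysosome, 0 were higher and 1 was lower. The latter is 6.25%, where 6.80% of all tested genes were lower. Ap1b1, a subunit of the AP-1 adaptor, was lower, at 233 to 247 CPM in Bbs8+/+ and 170 to 198 CPM in Bbs8-/- libraries (log2 fold change −0.39, adjusted p = 0.00486). The receptors themselves did not pass the threshold (M6pr, log2 fold change 0.43, adjusted p = 0.314, and Igf2r, −0.11, adjusted p = 0.837). Of 13 tested further V-ATPase subunits and regulators, 1 was lower (7.69%, where 6.80% of all tested genes were lower) and 10 had negative estimates, with a median log2 fold change of −0.27. Together they summed to 751 to 826 CPM in Bbs8+/+ and 618 to 685 CPM in Bbs8-/- libraries, lower without overlap (ratio 0.846). Atp6v0e2, a paralog of Atp6v0e, was at 213 to 268 CPM in Bbs8+/+ and 137 to 171 CPM in Bbs8-/- libraries, without overlap (log2 fold change −0.67, adjusted p = 1.02e-05), while Atp6v0e itself had a log2 fold change of 0.10.

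Of 19 genes of the MiT factor family and of mTORC1 signalling at the lysosome, 1 was higher (5.26%) and 2 were lower (10.5%). Over all tested genes the shares were 5.46% and 6.80%. Without Bbs8+/+ replicate 1 the counts were 1 and 4, beside 645 higher and 847 lower of all 12689 genes then tested. Rragd, a Rag GTPase, was higher, at 72.8 to 99.6 CPM in Bbs8+/+ and 119 to 135 CPM in Bbs8-/- libraries (log2 fold change 0.55, adjusted p = 0.00223). Lamtor4, a subunit of the Ragulator scaffold, was lower, at 90.0 to 108 CPM in Bbs8+/+ and 47.6 to 71.6 CPM in Bbs8-/- libraries (log2 fold change −0.68, adjusted p = 0.000789). Rragb, another Rag GTPase, was lower on few counts, with 1.69 to 8.18 CPM in Bbs8+/+ and 0.400 to 1.75 CPM in Bbs8-/- libraries, which overlapped (log2 fold change −2.32, standard error 0.76, adjusted p = 0.037). Mitf, the MiT factor of pigment cells, was not past the threshold (log2 fold change 0.30, adjusted p = 0.132).

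Without Bbs8+/+ replicate 1 the protease group held 6 higher genes in place of 4 and the cofactors 2 in place of 1. The membrane proteins held 1 in place of 2. The counts for the glycosidases and lipid enzymes (2) and the V-ATPase (1) were as before. Over all genes 645 of 12689 were higher in that fit, and 704 of 12889 with all libraries. The median log2 fold change of the list without this replicate was 0.23.

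**Figure D5:**
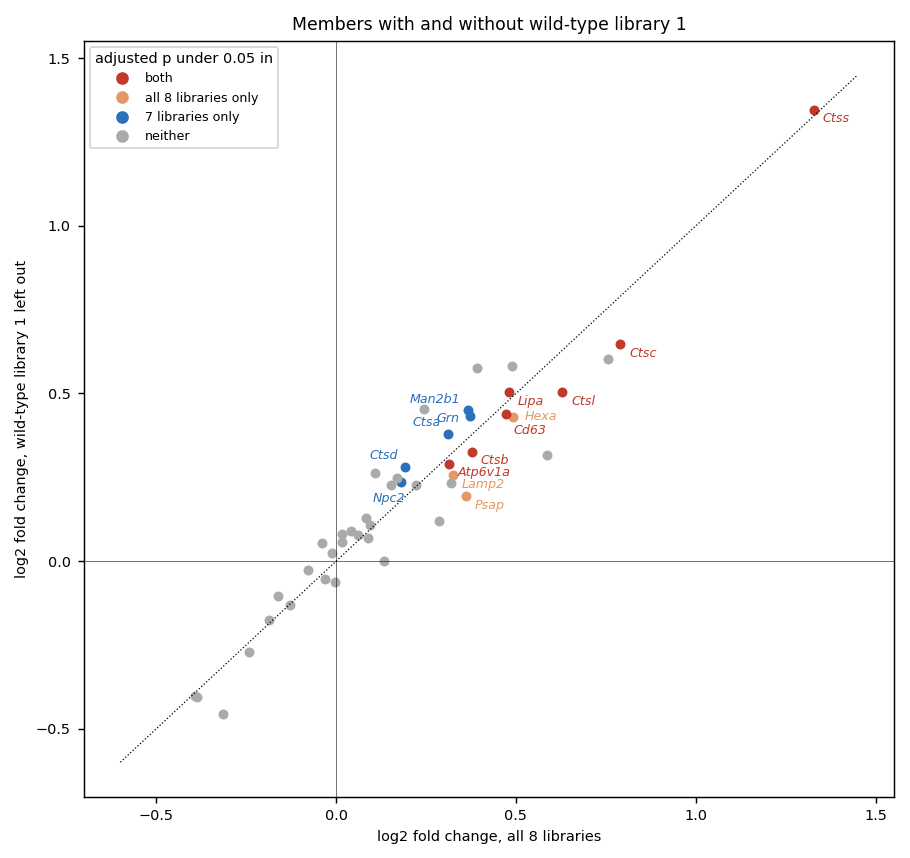
Log2 fold change of each of the 46 genes with all 8 libraries (x axis) and with Bbs8+/+ replicate 1 left out (y axis), coloured by which of the 2 fits called the gene, with the dotted line marking equal values. The 7 genes called in both fits include Ctss, Ctsc, Ctsl and Cd63, the 3 called only with all libraries are Hexa, Psap and Lamp2, and the 5 called only without the replicate are Ctsa, Ctsd, Man2b1, Grn and Npc2.

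The spread between libraries left large intervals for the low members. Ctsh, Gla, Gusb, Mcoln1, Tfeb and Asah1, all with a wild-type mean of at most 18.3 CPM, had standard errors of 0.27 to 0.44, whereas Cd63, Ctsd, Npc2, Atp6v1a, Atp6v0b and Atp6v1b2 had standard errors of 0.06 to 0.08, so that a difference of the size seen for Ctsb could not have been told from 0 in the former. Exons of Ctsb, Ctsz, Ppt1, Lamp1 and Atp6v1h overlap, on the opposite strand, those of Fdft1, Nelfcd, Cap1, Grtp1 and Rgs20, which held 574 to 1630 counts in all libraries. The strand setting of the counting was not given in the sources used here, so reads of such pairs cannot be told apart.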

How the data were processed

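RNA of RPE from 4 Bbs8-/- and 4 Bbs8+/+ mice at P29 was sequenced as QuantSeq 3′ libraries. The authors trimmed reads with BBDuk, aligned them with STAR to mm10 and counted uniquely mapped reads per Ensembl gene with htseq-count. The deposited values are these raw counts, and rows that name no gene (51.0% to 54.2% of each library, reads that were not unique or not on a gene) were left out. Libraries were grouped by their labels. Symbols and positions came from GENCODE M21 (GRCm38), which named 30934 of 31053 identifiers, and promoter sequences from RefSeq (GRCm38.p6).

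Genes were kept if 4 or more libraries reached 1 CPM, scaled by TMM and compared with the quasi-likelihood test of edgeR 4.0.16 in R 4.3.3 (limma 3.58.1), two-sided, with Benjamini-Hochberg adjustment over all 12889 genes at a threshold of 0.05. Standard errors were derived from the estimate and its F statistic. The scripts were tested on simulated data. Alternatives were other scalings (DESeq2's size factors, library size alone, TMM without photoreceptor, lens and erythrocyte genes, RPE markers), DESeq2 1.42.0, the likelihood ratio test, a test against a fold change of 1.2, other filters, an adjusted p of 0.01, a replicate block and each library left out.

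The members and lists were chosen with earlier results of these data known. All members were accounted for, with each library's value for those past the threshold and for Tfeb and Tfe3, and up to 5 genes past the threshold were named per further list. Values of Ctsd, Lgmn, Grn, Lamp1, Npc1, Atp6v1b2, Atp6v1g1 and Atp6v0b in each library, and M6pr, Igf2r, Mitf, single marker genes and the sums without Ttr, Cd63 or Csf1r, were added after their values had been seen. Marker lists of bipolar and amacrine cells (0 higher and 1 lower of 8 tested), endothelium (0 and 0 of 5) and fibroblasts (0 and 2 of 6) were also counted. No 2 libraries agreed within sampling noise, and p-values measure the spread between 4 mice per genotype.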

Additional observations from a re-analysis of the deposited data

Results flagged for a closer look

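In groups of 4 libraries, the library farthest from the others was compared with the range of its group (Dixon's 95% criterion, 94 groups, of which chance would flag about 1 in 20). It stood out for 4 genes, none of them past the threshold between genotypes. Ctsf was at 89.5 CPM in Bbs8-/- replicate 1, where the other knockout libraries were at 70.9 to 74.0 CPM. Man2b1 was at 62.0 CPM in the same library and at 85.6 to 89.2 CPM in the other knockout libraries. Scarb2 was at 98.8 CPM in Bbs8+/+ replicate 1 and at 117 to 119 CPM in the other wild-type libraries. Atp6v1f was at 304 CPM in Bbs8+/+ replicate 2 and at 365 to 377 CPM in the others.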

How the results depend on the processing

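All 46 genes and their counts were recomputed under 19 alternatives, 8 of which left out a library. The higher calls over all tested genes are given in brackets. The number of higher genes was 17 with library size alone (1005 of 12889), with a median log2 fold change of 0.27. It was 4 in the test against a fold change of 1.2 (353 of 12889) and 6 at an adjusted p under 0.01 (394 of 12889). It was 13 without the filter (730 of 17835) and 12 at a minimum of 5 CPM (755 of 10188). The likelihood ratio test gave 9 (767 of 12889), and DESeq2 (752 of 12889) and the other scalings (657 to 716 of 12889) gave 10. With single libraries left out it ranged from 8 to 12 (553 to 645) and the median from 0.15 to 0.23. The number of lower genes ranged from 0 to 1 (Npc1, without Bbs8-/- replicate 2, where 754 of all 12599 were lower). Of the 10 called genes, 4 (Ctsc, Ctsl, Ctss and Cd63) were called under all 19 alternatives. Ctsb and Atp6v1a lost the call only in the test against a fold change of 1.2, Lipa there and at an adjusted p under 0.01, Lamp2 in 6, Hexa in 7 and Psap in 8. Of the 36 others, 10 were called under at least 1 alternative, Ctsd and Lgmn under 5 each.

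With the replicate block, 12 genes were higher, beside 650 of all 12889 tested genes. The numbers share no animal, and same-numbered libraries did not deviate together (correlations −0.06, −0.00, 0.02 and 0.01 across 6476 genes). Direction turned only for genes that no alternative called. With library size alone these were Ppt1 (0.011), Scarb2 (0.0846), Atp6v1b2 (0.0586), Atp6v1e1 (0.0518) and Atp6v1f (0.0796). Scarb2 was also above 0 with DESeq2's size factors (0.0024), RPE markers (0.0085), DESeq2's test (0.0028) and the 5 CPM minimum (0.012, and Atp6v1f 0.0051), and Ctsh was at −0.0065 with the replicate block. With single libraries left out the log2 fold change ranged from −0.163 to 0.161 for Ctsh, −0.0325 to 0.262 for Asah1, −0.0631 to 0.0383 for Scarb2, −0.0424 to 0.284 for Cln3, −0.00846 to 0.152 for Atp6v0a1, −0.057 to 0.0144 for Atp6v1b2, −0.0831 to 0.159 for Atp6v1c1, −0.0815 to 0.0531 for Atp6v1e1, −0.0751 to 0.023 for Atp6v1f, −0.00103 to 0.247 for Atp6v1h and −0.0226 to 0.0559 for Atp6ap2. The cause of these turns was not tested. Depth limits the genes under about 20 CPM most, among them Tfeb and Mcoln1.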
